A study of Mus with 2 samples.

Results

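The 27 genes described here encode enzymes of cholesterol synthesis, the proteins that hold or release the transcription factor SREBP2, and carriers that move sterol within the cell. They were listed by their role in the pathway, with no measured value in the rule, though earlier results of these data were known. They comprise 20 enzymes, 4 genes of SREBP2 control and 3 genes of sterol transport, of 13532 genes measured. All 27 had at least 1 probe, 38 probes in all, and all 38 were well above background on both arrays, so that no member was lost to a filter on low signals.

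Bone marrow of male C57BL6/J mice aged 10 weeks was grown for 7 d with 10 ng/mL of M-CSF into bone marrow derived macrophages (BMDMs). The cells were then held under M2 conditions, which here means 10 ng/mL of IL-4, for 24 h. One culture received DMSO, the solvent, and the other received 10 µM GW4064, a synthetic agonist of the farnesoid X receptor (FXR). Each condition was read on 1 Agilent 1-colour array, both on the same slide, and whether marrow of several mice was pooled is not given in the sources used here. Since neither condition was repeated, no error between replicates can be given, no test was made, and a difference between these cultures cannot be told apart from an effect of the agonist.

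Cholesterol is built from acetyl-CoA through mevalonate, isoprenoid pyrophosphates, squalene and lanosterol. When sterol in the endoplasmic reticulum is low, SCAP carries SREBP2 to the Golgi, where it is cut, and the released part enters the nucleus and switches on most genes of this pathway. When sterol is plentiful, INSIG proteins retain SCAP and its cargo. Macrophages also take up much cholesterol from lipoproteins and dead cells, which leaves the lysosome through NPC1 and NPC2.

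A value is given below first as the processed signal of a probe, the brightness of its spot after background subtraction. Signals of single probes are set side by side only for the same probe, since brightness also depends on the probe. The summed signals of marker lists add different probes, so they are compared only between the arrays and give no amount of a cell type. A difference is the log2 of GW4064 over DMSO after the 75th percentile of each array was set to 0, averaged over the probes of a gene. Among 234 probes printed several times and bright at every spot, the SD of the difference among copies was 0.077 as a median. It was 0.18 for signals under 100 and 0.072 for signals of 1000 to 10000. This SD covers the reading of spots within these arrays and not the spread between cultures.

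**Figure D1:**
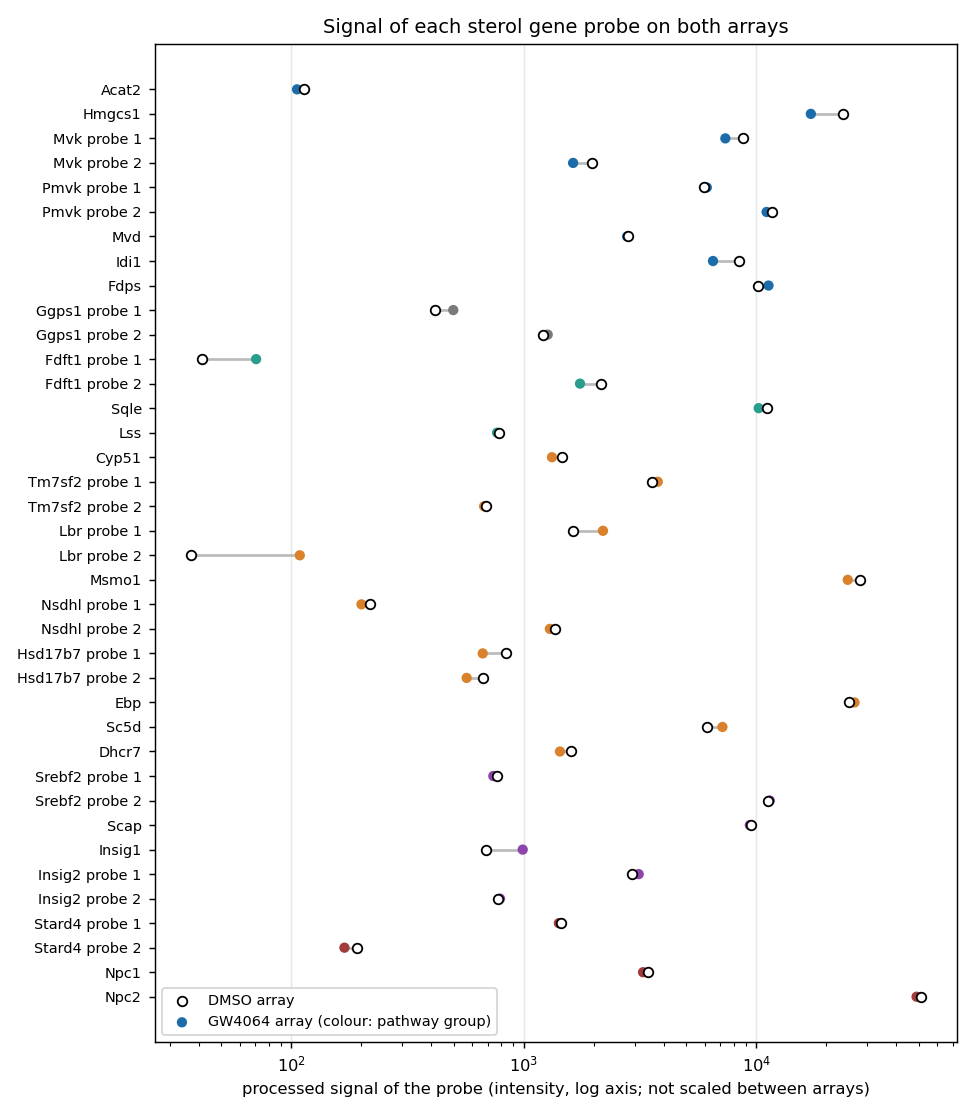
Processed signal (intensity, log axis) of all 38 probes of the 27 genes, in pathway order, with open circles for the DMSO array and filled circles for the GW4064 array. The largest shifts to the left are those of Hmgcs1 (23635 to 17145), Idi1 (8449 to 6508) and 1 probe of Hsd17b7 (836 to 666), and the longest lines to the right belong to the dim probes of Lbr (37.1 to 109) and Fdft1 (41.5 to 70.7).

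Most genes of the pathway were lower on the GW4064 array, and none differed 2-fold. Of the 27 genes, 19 were lower and 8 higher, or 70.4% lower against 48.2% of all measured genes, and against 59.3% when genes not above background were kept. The median difference was -0.094 over the 27 genes and 0.0068 over all genes. At 2-fold or more 0 of the 27 were higher, against 2.04% of all genes, and 0 were lower, against 2.71%. At 1.5-fold or more 1 gene, Lbr, was higher, against 4.39% of all genes, and 0 were lower, against 5.55%. More of the genes thus lay below 0 than above it, with 13 of the 27 genes among the 25.0% of genes with the lowest differences (below -0.12) and 4 among the 25.0% with the highest (above 0.13), a division chosen after the values were seen. Scaling to the spike-in RNA, an external RNA added to each sample, moved the median of all genes to -0.18. On that scale 25 of the 27 were lower and 2 higher, where 81.3% of all genes were lower, and the median of the 27 was -0.28.

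**Figure D2:**
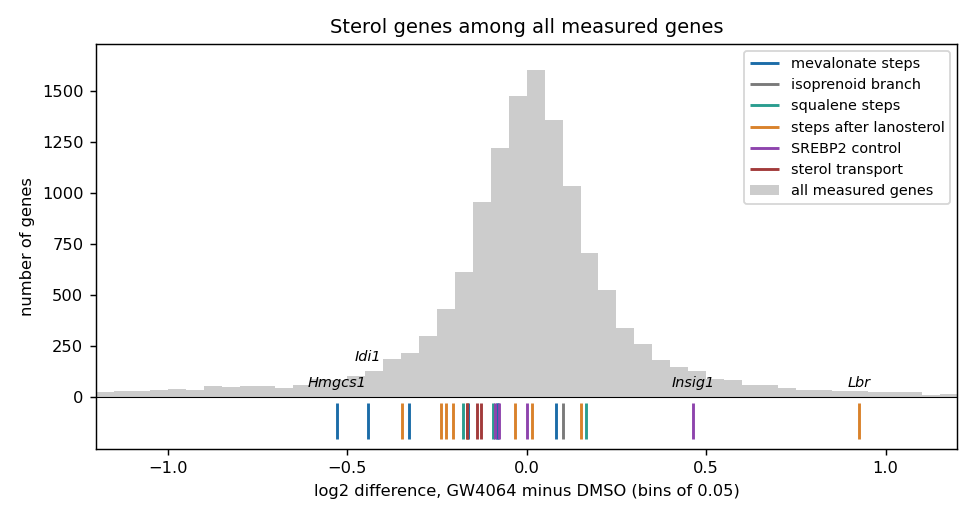
Number of measured genes (y axis) by log2 difference, GW4064 minus DMSO, in bins of 0.05 (x axis), with a coloured tick under the axis for each of the 27 genes. The 470 genes beyond 1.2 either way are not drawn. The ticks lie mainly left of 0, from Hmgcs1 at -0.53 upwards, with Insig1 (0.46) and Lbr (0.93) apart on the right.

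The mevalonate steps held the 2 lowest differences of the 27 genes, those of Hmgcs1 and Idi1. Hmgcs1, whose enzyme condenses acetoacetyl-CoA with acetyl-CoA to HMG-CoA, had a signal of 23635 with DMSO and 17145 with GW4064. This was 1.44-fold lower, a difference of -0.53, and 6.28% of all genes had a lower one. Idi1, which interconverts isopentenyl and dimethylallyl pyrophosphate, had signals of 8449 and 6508. Its difference of -0.44 was 1.36-fold lower, with 7.57% of genes below it. Each of these genes rests on 1 spot per array, at which no other spot differing 8-fold lay within 300 µm. Within 1000 µm there were 12 such spots for Hmgcs1 and 1 for Idi1.

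Mvk, the kinase that takes up mevalonate, was read by 2 probes that differed little from each other. The first went from 8740 with DMSO to 7355 with GW4064 and the second from 1970 to 1629, differences of -0.31 and -0.34. Among 2711 genes with 2 probes, the differences of the probes lay a median of 0.10 apart, against 0.025 for Mvk. Mvk was thus 1.25-fold lower as the mean of both probes.

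The other genes of this stretch differed by less. Acat2, the cytosolic thiolase that makes acetoacetyl-CoA, had signals of 113 and 106, a difference of -0.16. Pmvk, the kinase after Mvk, had differences of -0.14 and -0.018 on its 2 probes. Mvd, the decarboxylase that yields isopentenyl pyrophosphate, had signals of 2811 and 2781, a difference of -0.081. Both the Pmvk mean (-0.081) and the Mvd value were close to the SD over copies. Fdps, which makes farnesyl pyrophosphate, was the only one of the 7 genes that was higher, with 10183 and 11274, a difference of 0.081. With spike-in scaling it was lower (-0.11). Its spot had 2 other spots differing 8-fold within 300 µm, which places it in what is called a damaged area below. Of the 7 genes from Acat2 to Fdps, 6 were lower, with a median of -0.16.

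Ggps1 stands on the branch that leaves the sterol pathway, where farnesyl pyrophosphate is extended to geranylgeranyl pyrophosphate for the lipid anchors of proteins. Its probes had signals of 414 and 498, and of 1207 and 1267, with DMSO and GW4064 in that order. The differences were 0.20 and 0.0040, with a mean of 0.10 that became -0.089 with spike-in scaling.

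**Figure D3:**
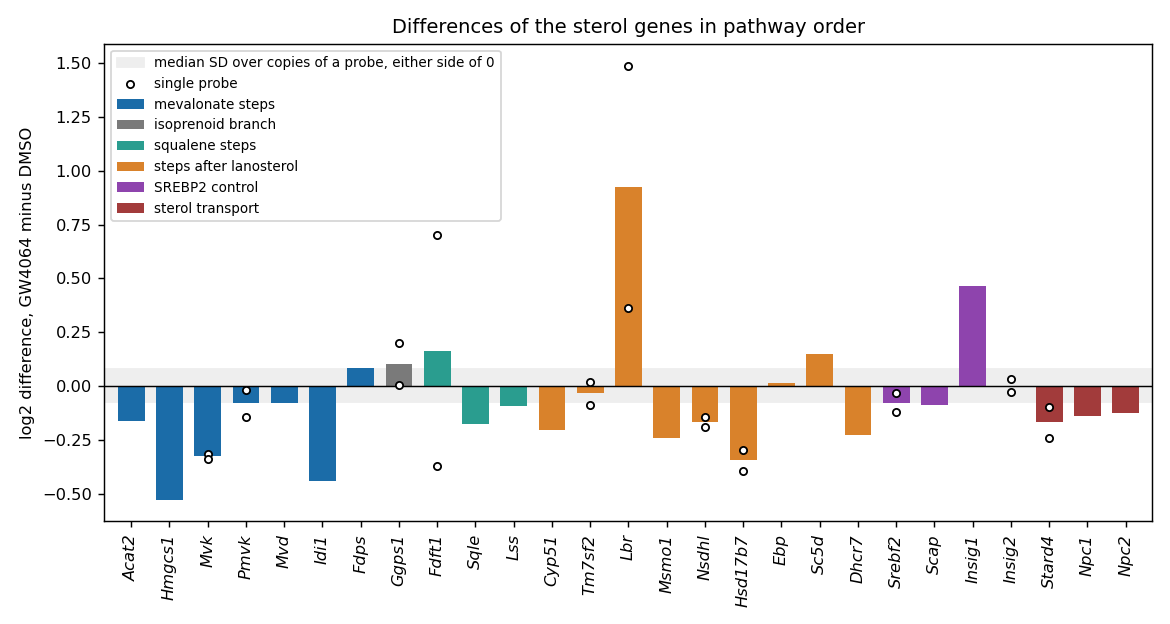
Log2 difference, GW4064 minus DMSO, of each of the 27 genes in pathway order (bars, coloured by group), with open circles for single probes where a gene had 2 and a grey band of 0.077, the median SD over copies, either side of 0. Bars point down for 19 genes, lowest for Hmgcs1 (-0.53) and Idi1 (-0.44), and the probes of Fdft1 and Lbr lie far apart.

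The first committed sterol step could not be given 1 direction. Fdft1 is squalene synthase, which joins farnesyl units to squalene. Its brighter probe (A_55_P2033250) went from 2158 with DMSO to 1745 with GW4064, a difference of -0.37, or 1.29-fold lower. Its dimmer probe (A_52_P136138) went from 41.5 to 70.7, a difference of 0.70. The probes, both designed on transcript NM_010191, lay 1.07 apart, and 0.70% of the genes with 2 probes had a gap as large or larger. The mean of 0.16 therefore describes neither probe, and it turned to -0.034 after a normexp background correction, which lowered the dim probe to 0.28. Neither spot had an 8-fold differing spot within 300 µm, while the brighter probe had 10 within 1000 µm and the dimmer 7.

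The steps on either side of lanosterol formation were lower by small amounts. Sqle, squalene epoxidase, had signals of 11055 and 10229, a difference of -0.18. Its spot lay among 8 others that differed 8-fold within 300 µm and 54 within 1000 µm, and Sqle had no other probe. Lss, which closes the rings of lanosterol, had signals of 783 and 767, a difference of -0.094. Cyp51, the P450 enzyme that demethylates lanosterol, had 1455 and 1321, a difference of -0.20 with 16.4% of genes below it.

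After lanosterol, the genes whose enzymes together strip methyl groups from the sterol ring were all lower. Msmo1, the oxidase of this complex, had signals of 27875 and 24705, a difference of -0.24. Nsdhl, its decarboxylating dehydrogenase, had -0.19 and -0.14 on its 2 probes. Hsd17b7, the ketoreductase that completes the step, went from 836 to 666 on 1 probe and from 667 to 568 on the other. Its differences of -0.39 and -0.30 gave 1.27-fold lower as a mean, a difference of -0.35 and the third lowest of the 27 genes, just below Mvk. After the normexp correction the mean was -0.25, above Mvk (-0.35), Msmo1 (-0.28) and Cyp51 (-0.26).

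The final steps went both ways. Ebp, the sterol isomerase, had signals of 25010 and 26422, a difference of 0.014 that turned negative under 4 of 11 alternatives. Sc5d, the desaturase that follows it, had 6152 and 7147, a difference of 0.15, which was -0.040 with spike-in scaling. Dhcr7, the last reductase before cholesterol on its branch, had 1599 and 1431, a difference of -0.23. So Ebp and Sc5d were level or slightly higher on the GW4064 array while Dhcr7 was 1.17-fold lower.

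Lbr and Tm7sf2 encode sterol reductases that carry out the same reaction after Cyp51, and their probes behaved differently. Lbr is also the lamin B receptor, a protein of the inner nuclear membrane that binds heterochromatin. Its brighter probe (A_51_P201137) went from 1626 with DMSO to 2190 with GW4064, a difference of 0.36. Its dimmer probe (A_55_P2184897), of the same transcript NM_133815, went from 37.1 to 109, a difference of 1.49. Both probes of Lbr were higher with GW4064, but by unequal amounts, 1.29-fold and 2.80-fold. The mean of 0.93 (1.90-fold) passed the 1.5-fold threshold while the brighter probe alone did not. After the normexp correction the dim probe had 0.53 and the mean was 0.40. Tm7sf2 went from 3552 to 3768 on 1 probe and from 685 to 675 on the other. Its differences were 0.020 and -0.086, a gap near the median for genes with 2 probes. Lbr was higher under all 11 alternatives, between 0.36 and 0.93. Tm7sf2 was lower under 10 of them and higher with its brighter probe alone. Some alternatives could not change the value of a gene, as set out in the section on processing below.

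Of the genes that control SREBP2, Insig1 stood apart. Insig1, an anchor of SCAP in the endoplasmic reticulum and itself a known target of SREBP factors, went from a signal of 685 with DMSO to 989 with GW4064. It was 1.38-fold higher, a difference of 0.46, with 6.16% of all genes above it. No other 8-fold differing spot lay within 300 µm of its spot, and 4 lay within 1000 µm. Insig2, its paralog and read from transcripts NM_133748 and NM_178082, went from 2916 to 3119 and from 771 to 790. Its differences of 0.031 and -0.030 gave a mean of 0.00091. The direction of Insig1 was thus opposite to that of Hmgcs1 and Idi1, and it was higher under all 11 alternatives, between 0.27 and 0.47. Some of these, such as the brightest probe, could not change its value.

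Srebf2, which encodes SREBP2 itself, went from 11174 to 11420 on 1 probe and from 768 to 739 on the other. The differences were -0.034 and -0.12, and the second probe lay in a damaged area. Scap, the escort of SREBP2, had signals of 9519 and 9369, a difference of -0.089, and its only spot also lay in a damaged area, with 4 other 8-fold differing spots within 300 µm. The transcripts of the factor and its escort therefore differed by little more than the SD over copies.

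The carriers of sterol were lower by similar small amounts. Npc1, the membrane protein that exports cholesterol from the lysosome, had signals of 3425 and 3256, a difference of -0.14. Npc2, the soluble protein that hands cholesterol to it, had 50995 and 48842, a difference of -0.13. Stard4, a cytosolic carrier of cholesterol, had -0.095 and -0.24 on its 2 probes. For these 3 genes 22.6%, 23.8% and 19.4% of all genes had a lower difference, in the order Npc1, Npc2 and Stard4.

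Over the pathway, 27 of 38 probes were lower and 11 higher. Of the 11 genes with 2 probes, 8 had both probes in 1 direction and 3 (Fdft1, Tm7sf2 and Insig2) had them in opposite directions. In 9 of these 11 genes the probes lay within 0.2 of each other, the exceptions being Fdft1 and Lbr, whose second probes were dim. An area is called damaged here where 2 or more other spots differing 8-fold lie within 300 µm, and physical damage was not checked. Such areas covered 16.5% of all spots and held 5 of the 38 member spots. Those belonged to Fdps, Sqle, Scap and 1 probe each of Srebf2 and Stard4. Without them, 24 of the genes were measured, 17 of which were lower and 7 higher, with a median of -0.11.

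**Figure D4:**
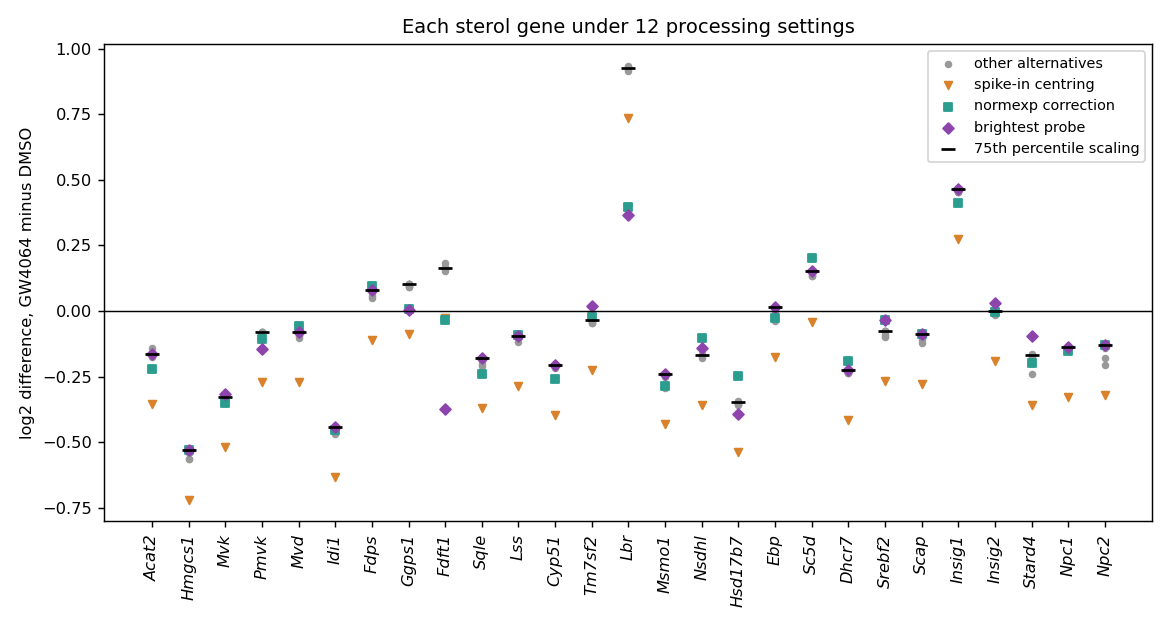
Log2 difference of each of the 27 genes (x axis, pathway order) under 12 settings, the 75th percentile scaling used in the text (black line) and 11 alternatives. Hmgcs1, Idi1 and Mvk are below 0 and Insig1 and Lbr above 0 at every point, the spike-in centring (triangles) lies below the percentile scaling for every gene, and the brighter probe alone moves Fdft1 to -0.37 and Lbr to 0.36.

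Other genes of SREBP processing, such as the Golgi proteases and the ligases and scaffolds of the endoplasmic reticulum, were level. All 13 were measured, 8 were higher and 5 lower, and the median was 0.017. Mbtps1, the protease that makes the first cut in SREBP2, had signals of 9133 and 9902 on its brightest probe. The difference was 0.098 as the mean of its 2 probes, at least 1 of which lay in a damaged area. None of the 13 differed 1.5-fold, against 4.39% of all genes higher and 5.55% lower, so 0 says little in so short a list. Of 21 other sterol enzymes and carriers, 18 were measured, 10 higher and 8 lower, with a median of 0.016 and values from -0.35 to 0.24. Lipa, the lysosomal lipase that frees cholesterol from its esters, had 40818 and 44426, a difference of 0.057. Of 15 genes that use isoprenoids for protein anchors, dolichol or coenzyme Q, 14 were measured, 8 higher and 6 lower, with a median of 0.023. In this list too 0 genes were 1.5-fold apart, and the same shares of all genes apply. Fnta, a subunit of the farnesyl and geranylgeranyl transferases, had a difference of -0.084 over its probes. With spike-in scaling the medians of these 3 lists were each -0.17, against -0.18 for all genes.

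In fatty acid synthesis, which SREBP1 controls, the 14 measured genes were divided evenly, 7 higher and 7 lower, with a median of -0.013. Scd1, a desaturase that makes oleate and palmitoleate, went from 543 to 982, a difference of 0.79. It was the only one of the 14 past 1.5-fold, against 4.39% of all genes higher and 5.55% lower. Scd2, a desaturase of the same family, had 53072 and 53349, a difference of -0.058. Of genes outside the naming rule, picked after their values were seen, Acss2, an acetyl-CoA synthetase, had 0.62 and 0.38 on its probes, and Acsl3, an acyl-CoA synthetase of lipid droplets, went from 706 to 502, a difference of -0.56. Srebf1, the gene of SREBP1, had signals of 406 and 413, a difference of -0.039.

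LXR is the receptor through which cells respond to an excess of sterol. Of 13 genes of LXR and its targets, 12 were measured, of which 10 were lower and 2 higher, with a median of -0.15. Of all genes 48.2% were lower, with a median of 0.0068. With spike-in scaling the median of the list was -0.34, against -0.18 for all genes. At 1.5-fold or more 1 of the list was higher and 1 lower, against 4.39% and 5.55% of all genes. Mylip, a ubiquitin ligase, went from 1845 to 1361 on its brighter probe, a difference of -0.50, and from 28.7 to 18.6 on the other (-0.69), and its mean of -0.60 was -0.25 after the normexp correction. Apoe, the apolipoprotein E gene, had 222003 and 223733, a difference of -0.054, at a spot in a damaged area. Picked after their values were seen, Abca1 (8252 to 6603, -0.39) and Abcg1 (27623 to 20784, -0.48), both exporters of cholesterol, and Nr1h3, the gene of LXR alpha (-0.47 on each of 2 probes), were lower as well. Tgm2, the gene of a transglutaminase, was the only member of the list 1.5-fold or more higher, with 18376 and 83669 on 1 probe (2.12) and 10030 and 58681 on the other (2.48). The 27 sterol genes and this list thus both had medians below 0, and a link between them was not tested.

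**Figure D5:**
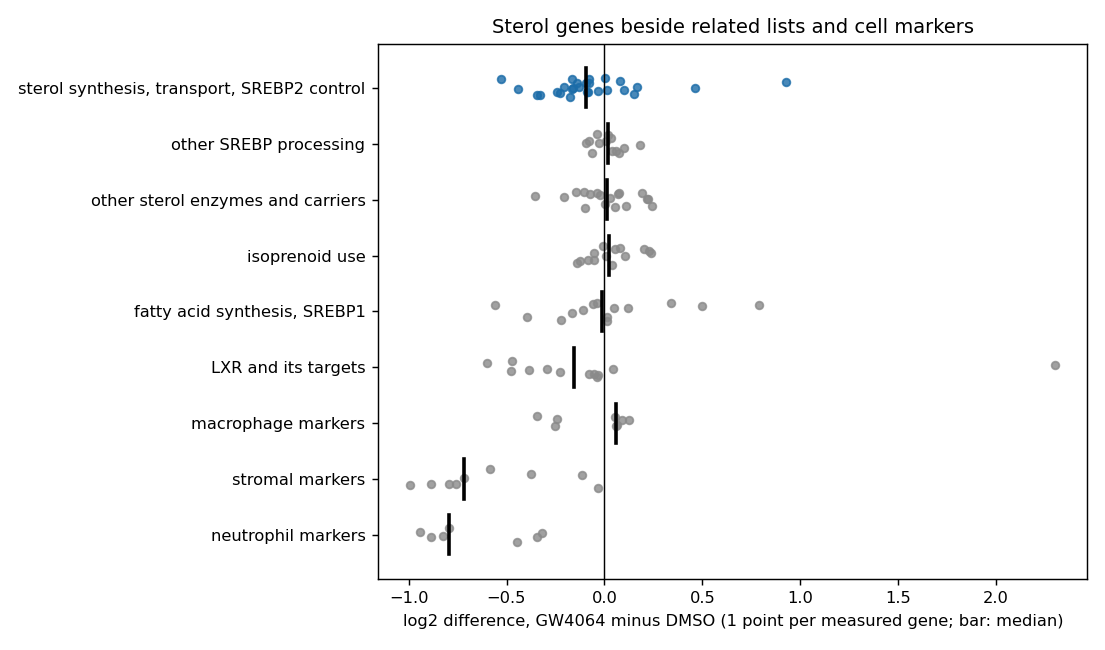
Log2 difference, GW4064 minus DMSO (x axis), with 1 point for each measured gene and a black bar for the median of each list drawn. The median of the 27 sterol genes (-0.094) lies left of those of other SREBP processing (0.017), other sterol enzymes (0.016) and isoprenoid use (0.023), and the stromal (-0.72) and neutrophil (-0.79) markers lie farthest left of the lists drawn. The FXR, lymphocyte and dendritic cell lists, with few measured genes, are not drawn.

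The cells carried the markers of macrophages on both arrays. Of 9 macrophage markers, 8 had a probe and all 8 were well above background, 5 higher and 3 lower with GW4064. Csf1r, the M-CSF receptor, had 169338 and 161892 on its brightest probe, and Adgre1, the gene of F4/80, had 53331 and 45282. At least 1 of the 3 probes of Csf1r and of the 2 probes of Adgre1 lay in a damaged area. The summed signal of the list was 313505 with DMSO and 298086 with GW4064. Stromal and neutrophil markers were lower on the GW4064 array. All 9 measured genes of 10 stromal markers were lower, with a summed signal of 36847 with DMSO and 20857 with GW4064, led by Sparc (22294 to 12535) and Col1a2 (10058 to 5296), while Lum was not well above background. All 7 neutrophil markers were lower, with sums of 13911 and 8998, led by S100a9 (8136 to 4614) and S100a8 (2638 to 2023). Of 6 lymphocyte markers 3 were measured, led by Nkg7 (3197 to 3066) and Cd3e (209 to 248), with sums of 3464 and 3335, and the defining genes Cd3d and Cd79a were not well above background. Of 5 dendritic cell markers 3 were measured, with sums of 36784 and 37489, of which Siglech alone gave 36735 and 37360. Flt3 was not well above background with DMSO and had 81.5 with GW4064, which is at least 4.94-fold higher. Under normexp its log2 difference was only 0.72, and at least 1 of its 2 probes lay in a damaged area. Cd209a and Xcr1 were not well above background. Fewer cells of a type and less RNA per cell cannot be told apart in bulk RNA, and the part of these cells in the differences of the sterol genes was not tested.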

How the data were processed

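Gene expression in mouse BMDMs under M2 conditions was measured on Agilent 1-colour arrays, 1 for DMSO and 1 for GW4064. Per the labels, the authors used Agilent Feature Extraction 10.7.1.1, and the deposited scanner files hold the intensity of each spot, background-subtracted and detrended within the array but not scaled between arrays. The authors' deposited log2 table holds scaled values whose per-probe baseline is not stated, and it served as an alternative. The title, source name and treatment label of the GW4064 sample name GW4064, while its free-text description repeats that of the DMSO sample.

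Spots marked as non-uniform or as outliers among copies on either array were left out (215 spots of DMSO and 30 of GW4064 were non-uniform), and 0 spots were saturated. The log2 intensity minus the 75th percentile of each array (signals of 1209 and 1265) was averaged over the spots of a probe. Probes above background on 1 array were bounded at the lowest value above background on the other, and those above background on neither were dropped. Genes were named through unversioned RefSeq transcripts of GRCm38.p6, which named 26445 of 39429 probes. The array design refers to mm9, so no coordinates are given.

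Because each condition had 1 array, differences are given by size, at 2-fold and 1.5-fold, beside the share of all genes. The 27 genes and the lists were chosen with earlier results of these data known. The naming rule took all 27 genes, the genes of each related list 1.5-fold or more apart, its brightest gene, and the 2 brightest markers of each cell type with those not above background. The result of 1 lymphocyte marker is not reported here. Calculations were tested on simulated data. Alternatives were quantile, median, loess (span 0.3) and spike-in scaling, the log2 table, normexp (offset 50), kept marked spots, other filters on dim probes, the brightest probe, and leaving out damaged areas. The normexp correction was run in limma 3.58.1 under R 4.3.3. All else was computed in Python 3.11.15 with pandas 2.3.3 and numpy 2.4.6, the loess with statsmodels 0.14.6, the neighbouring spots with scipy 1.17.1, and the figures with matplotlib 3.10.9.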

Additional observations from a re-analysis of the deposited data

How the results depend on the processing

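No paired analysis was possible because DMSO and GW4064 were read on 1 array apiece. Of the 27 genes, 18 were lower and 2 (Insig1 and Lbr) higher under each of the 11 alternatives that measured them. The other 7 (Fdps, Ggps1, Fdft1, Ebp, Sc5d, Insig2 and Tm7sf2) turned under 1 or more. Not every alternative could turn a gene. Keeping marked spots and the other filters on dim probes left the value of each of the 27 genes unchanged. Median centring, spike-in centring and the log2 table each moved all 27 by nearly the same amount. The brightest probe could not change the 16 genes with 1 probe, Insig1 among them. The median of -0.094 stayed between -0.13 and -0.092 except with spike-in centring, where it was -0.28 and 2 genes, Hmgcs1 (-0.72) and Idi1 (-0.63), were 1.5-fold or more lower. The count of genes 1.5-fold or more higher went from 1 to 0 with the brightest probe alone and with the normexp correction. Between 17 and 25 genes were lower, while the share of all genes that were lower ran from 47.8% to 81.3%. With no filter on dim probes that share was 59.3%, and the median of the 27 genes differed from that of all genes by -0.035 (-0.094 against -0.059), while under the other alternatives it differed by -0.13 to -0.087. Of the 27 genes, 0 differed 2-fold under any alternative. Fdps, Sqle and Scap had no spot outside the damaged areas. Precision is limited by the number of arrays, and for Lbr and Fdft1 the low signal of 1 probe limits it further.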

Other observations

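Of 9 genes linked to FXR, Nr1h4, the gene of FXR itself, did not stand well above background with DMSO or GW4064, and neither did Slc51a, Fgf15, Cyp7a1 or Cyp8b1. The 1 probe of Nr1h4 had 4 other spots differing 8-fold within 300 µm, and the paper detected Nr1h4 in BMDMs by real-time PCR. Abcb4, a phospholipid exporter, had signals of 6016 and 6835, a difference of 0.12. Nr0b2, the repressor SHP, went from 22.5 with DMSO to 45.5 with GW4064, a difference of 0.95 that was 0.35 after the normexp correction, at a spot with 2 others differing 8-fold within 300 µm. Slc51b and Abcb11, bile acid transporters, were at least 3.14-fold and at least 3.15-fold lower, from signals of 45.3 and 58.5 with DMSO to values not well above background with GW4064. These bounds did not hold after the normexp correction, where the log2 differences were -0.67 and -0.48.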
